A study of Mus musculus with 21 samples.

Results

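New isoforms from annotated start sites are transcripts whose first base lies at a promoter that the gene annotation already holds, but whose introns are joined in a way it does not hold. They were taken from long-read transcripts of mouse sperm, oocytes and preimplantation embryos by 3 criteria: a multi-exon transcript shared at least 1 intron with a GENCODE vM21 transcript (mm10), its chain of introns was neither equal to an annotated chain nor contained in one, and its 5′ end lay within 300 bases of an annotated start on the same strand. Of 22612 merged transcripts, 3600 met all 3 (15.9%), which was 21.0% of the 17127 multi-exon transcripts and 70.7% of the 5094 new isoforms that shared an intron with the annotation. They came from 2407 genes, and 3378 of them (93.8%) from protein-coding genes, with 117 in lincRNA genes and 33 in antisense genes. A single new isoform of this kind was found in 1708 genes, and 26 genes had 6 or more.

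The transcripts were measured in 14 short-read libraries, 2 each of DBA/2J sperm, C57/BL6J oocytes and DBA/2J x C57/BL6J embryos at the 1-cell, 2-cell, 4-cell, 8-cell and blastocyst stage. Females of 3 to 5 weeks received 7.5 IU PMSG and 7.5 IU hCG. Oocytes were lysed 20 h after hCG, and embryos, which were cultured until then, at 24 to 26 h (1-cell), 46 to 48 h (2-cell), 54 to 58 h (4-cell), 68 to 70 h (8-cell) and 94 to 96 h (blastocyst). The sperm came from the epididymis, and the protocol names the males DBA/2N where the titles say DBA/2J. Each library was a pool of cells, and the cDNA of both pools of a stage was mixed for its long-read annotation, so the long and short reads of a stage are not independent. The labels name no modified allele. In such bulk pools a change in the amount of a transcript per cell and a change in the mixture of cells cannot be told apart.

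Splicing removes introns from the primary transcript and joins the exons. Nearly all introns begin with GT, the donor, and end with AG, the acceptor, and a gene makes several isoforms when the spliceosome leaves out an exon, adds one, or picks another donor or acceptor. Because the promoter is kept, such isoforms answer to the same start site as the annotated ones but can encode another protein, or a frame that stops early, and mRNAs with an early stop are known targets of nonsense-mediated decay. In the mouse, the oocyte and 1-cell embryo live mostly on RNA stored by the mother, and the major wave of transcription from the embryo's own genome comes at the 2-cell stage, together with the clearance of much of the stored RNA.

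The sequences of a few of these isoforms show what was new in them. The first set gives exons in capitals, which mark bases that the isoform left out or added between the start and stop codon. Stella, the product of Dppa3, is a maternal factor that protects the methylation of the maternal genome. TCONS_00017047 left out an exon of 36 bases of Dppa3 at chr6:122629301-122629336 (+). Cyclin E1 drives entry into S phase, and TCONS_00018818 left out 69 bases of Ccne1 at chr7:38106279-38106347 (-). Creld2 encodes a protein of the endoplasmic reticulum, and TCONS_00007056 left out 96 bases at chr15:88823067-88823162 (+). Riok1 encodes a kinase of ribosome assembly, and TCONS_00005216 added 57 bases at chr13:38046851-38046907 (+). All coordinates are of mm10, and the bases were read from the GENCODE vM21 transcript sequences.
Dppa3 exon left out: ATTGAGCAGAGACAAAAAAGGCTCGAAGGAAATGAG
Ccne1 exon left out: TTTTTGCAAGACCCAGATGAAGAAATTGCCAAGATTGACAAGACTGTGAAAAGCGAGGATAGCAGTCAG
Creld2 exon left out: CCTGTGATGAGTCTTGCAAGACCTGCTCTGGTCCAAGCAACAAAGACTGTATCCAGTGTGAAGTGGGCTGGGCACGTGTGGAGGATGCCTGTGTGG
Riok1 exon added: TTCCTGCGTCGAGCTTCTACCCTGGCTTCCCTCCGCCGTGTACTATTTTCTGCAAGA
All 4 lengths are multiples of 3, so none of these exons shifts the reading frame, and the 4 isoforms were read through to the annotated stop codon after 138, 385, 318 and 586 codons in that order.

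The second set shows the exon ends that a new intron brought together, with the last 15 bases before the intron in lower case and the first 15 bases after it in capitals. These are junctions that no annotated transcript holds. The intron of Taf9, a subunit of the general transcription factor TFIID, spanned chr13:100651247-100654190 (+) from a new donor to an annotated acceptor. In Prkcz, an atypical protein kinase C, it spanned chr4:155356491-155357480 (-) from an annotated donor to a new acceptor. Both ends were new in the other 4, which are an intron of 228 bases in the polyubiquitin gene Ubb at chr11:62552194-62552421 (+), 1 of 77 bases in the splicing factor gene Srsf1 at chr11:88050835-88050911 (+), 1 of 20 bases in the first exon of Dppa3 at chr6:122626482-122626501 (+), and 1 of 14 bases in the testis chaperone gene Hspa2 at chr12:76406628-76406641 (+).
Taf9 junction: ctggtgcgtgccgagGTACACCAGGGGTTG
Prkcz junction: gggtggacagtgaagATGGAGCTGGAGGAG
Ubb junction: accatcaccctagagGTGGAGCCCAGTGAC
Srsf1 junction: ctgaacaccatacagAAACTTTTTTTGGTT
Dppa3 junction: agactaagcaatcttGCTTCTGCCCATCGC
Hspa2 junction: gtttagttataaaagTTTGATTTGGGGGAA
The Ubb intron began with GT and ended with AG, and 143 bases in a row were the same at both of its ends, because Ubb encodes repeated copies of ubiquitin. The Srsf1 intron was read as AA and AG, with 9 identical bases at its ends. The introns of 20 and 14 bases had GT and AG, but both are shorter than introns usually are, and they are described here as gaps of the deposited annotation.

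The isoforms had a median of 7 exons (quartiles 5 and 10) and 1401 bases (quartiles 966 and 1944). For comparison, the 7957 exact matches to an annotated chain had 6 exons and 1510 bases, and the 1494 new isoforms with a start elsewhere, called new-start isoforms below, had 5 exons and 1164 bases. The 5′ end lay within 50 bases of an annotated start in 82.6% of the isoforms (95% Wilson interval 81.3 to 83.8%), against 82.6% of the exact matches. The isoforms were chosen for a start within 300 bases, and the exact matches for their introns only. These equal shares thus cannot show that the starts of both classes are equally accurate. The 3′ end lay within 50 bases of an annotated end in 73.8% of the isoforms, against 78.4% of the exact matches and 63.9% of the new-start isoforms. At the limit of 300 bases the choice turned on few transcripts. There were 50 isoforms at 251 to 300 bases and 42 new-start isoforms at 301 to 350 bases, while 1188 new-start isoforms began more than 1000 bases away.

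Each isoform was set beside the annotated transcript that shared the most introns with it. Another acceptor was the most frequent difference, in 1129 isoforms (31.4%), followed by another donor in 1051 (29.2%), a skipped exon in 900 (25%), another first exon in 648 (18.0%), an added internal exon in 376 (10.4%), a new intron inside an annotated exon in 311 (8.64%), another last exon in 291 (8.08%), a retained intron in 78 (2.17%) and introns of 2 genes joined in 29 (0.806%). Of the 3600, 2640 showed a single kind of difference. A skipped exon stood alone in 602 isoforms and another first exon in 377. Among the new-start isoforms another first exon was found in 84.9%, which their definition favours, and skipped exons in 9.50%.

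**Figure D1:**
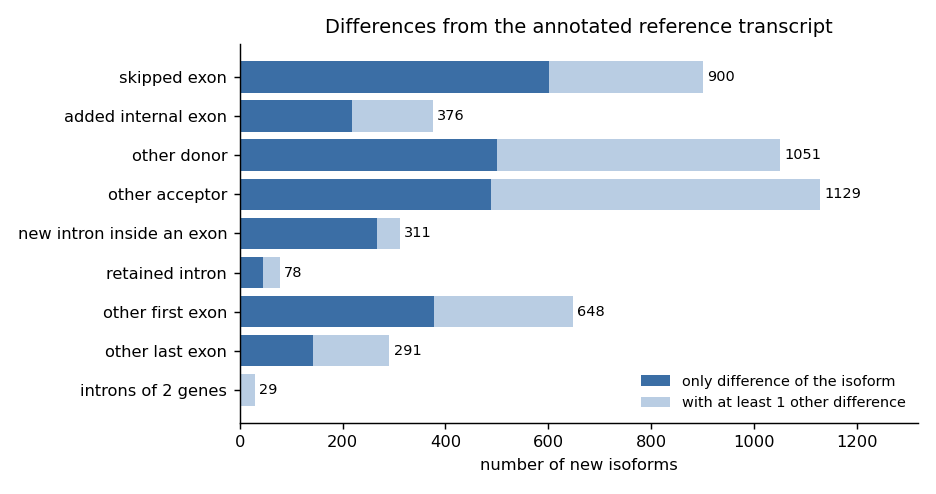
Number of new isoforms from annotated start sites (x axis) with each kind of difference from the annotated reference transcript (y axis), split into isoforms where it was the only difference (dark) and those with others (light). Another acceptor (1129) and another donor (1051) led, and skipped exons stood alone most often (602).

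All introns were annotated and only their combination was new in 1026 isoforms (28.5%). In 568 (15.8%) a new intron joined a donor and an acceptor that were each annotated, as a skipped exon does, and 2006 (55.7%, interval 54.1 to 57.3%) used at least 1 splice site that the annotation does not hold. The new introns numbered 3003, beside 15832 annotated introns in the same isoforms. With no genome sequence at hand, the bases of an intron end could be read only where an exon of some GENCODE transcript covers them, which was so for both ends of 805 new introns. Of these, 406 began with GT and ended with AG (50.4%, interval 47.0 to 53.9%), against 98.5% of the annotated introns read the same way. The share was 95.8% (69 of 72) where both sites were annotated, 71.8% with a new donor, 82.4% with a new acceptor and 22.5% (94 of 417) where both sites were new. Introns whose ends were both new were the class in which the usual bases were least frequent, and they made up 792 of the 3003. Both ends could be read in 417 of these 792, but in only 72 of the 610 whose sites were both annotated. The introns read thus over-represent those with both sites new, and the 50.4% does not stand for all new introns.

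**Figure D2:**
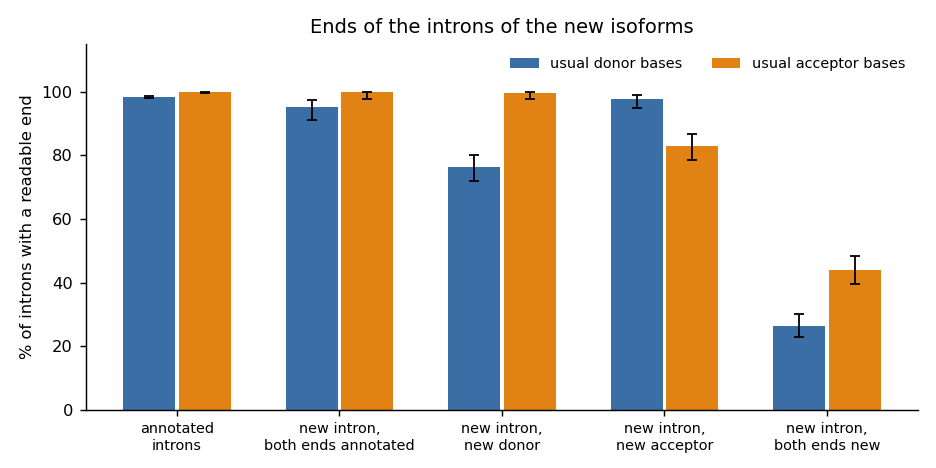
Percent of introns with a readable end (y axis) that carry the usual donor bases or the usual acceptor bases, by whether the sites were annotated (x axis); bars are shares and error bars 95% Wilson intervals. With both sites new the usual donor bases were found in 26.3% and the usual acceptor bases in 43.9%, against 98.4% and 99.8% of annotated introns.

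Further measures were taken on the same introns. A run of at least 6 identical bases at both ends, over which the exact position of an intron cannot be fixed, was found in 2.32% of annotated introns, 4.94% of new GT-AG introns (20 of 405) and 14.2% of new introns with other ends (49 of 346). New introns were seen in at least 2 of the 7 stage annotations in 15.9% of cases, against 74.97% of annotated introns. Among the new introns with both sites new, GT-AG was read in 36.7% of those seen in 2 or more stages (18 of 49) and in 20.7% of those seen in a single stage (76 of 367), and these intervals overlap little (24.7 to 50.7% against 16.9 to 25.1%).

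Of 800 new acceptors whose donor was annotated, 69 (8.63%) lay exactly 3 bases from an annotated acceptor, the spacing known from tandem NAGNAG acceptors, which add or remove a single codon. Of 792 new donors whose acceptor was annotated, 43 (5.43%) lay 4 bases away, a spacing also known from tandem donors, which shifts the frame. A distance of 1 base was more frequent than either, with 76 acceptors and 63 donors. All new sites lay within 2 bases of annotated ones in 225 of the 2006 isoforms, and in 1397 at least 1 lay more than 20 bases away. The Eif5a isoform TCONS_00003653 is a case of short shifts, with a donor 12 bases upstream of an annotated donor and an acceptor 1 base upstream of an annotated acceptor.

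**Figure D3:**
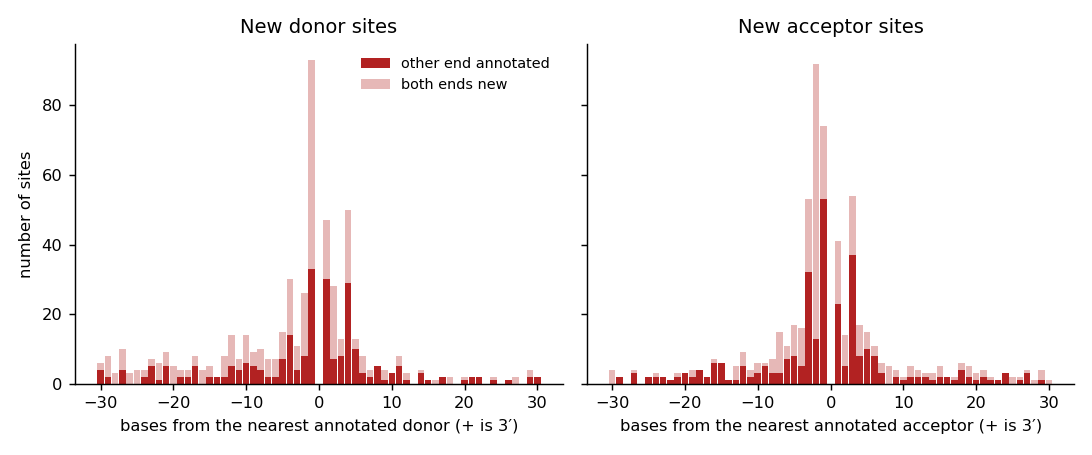
Number of new donor (left) and acceptor (right) sites (y axis) by distance in bases to the nearest annotated site of the same kind (x axis, positive towards 3′), split by whether the other end of the intron was annotated. Acceptors gather at 1 and 3 bases and donors at 1 and 4 bases.

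Skipped exons had a median of 110 bases, and 39.0% of the 1165 had a length that is a multiple of 3, against 39.5% of all annotated internal exons. Among 482 exons that were the sole difference of their isoform the share was 46.1% (interval 41.7 to 50.5%). The reading frame was followed from the annotated start codon through the bases that GENCODE exons cover. The start codon lay outside the exons in 619 of 3069 isoforms with a coding reference (20.2%), against 1.79% of the exact matches. Of 1968 isoforms in which a stop codon was reached, 1218 (61.9%) used the annotated stop, and 449 (22.8%, interval 21.0 to 24.7%) stopped elsewhere and more than 50 bases before the last junction, the usual mark of a target of nonsense-mediated decay. Exact matches, read the same way, gave such an early stop in 0.195%. They share all introns with their reference, so this share and their 1.79% are low largely by definition.

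With a single skipped exon whose length is a multiple of 3, 179 of 180 isoforms reached the annotated stop and 0 stopped early. With other lengths, 19 of 188 did and 98 stopped early. The frame after a skipped exon follows from its length, so these outcomes were largely fixed in advance. Isoforms with a retained intron as their only difference stopped early in 25 of 28 cases, and those with a new intron inside an exon in 21 of 206. Another first exon gave 132 of 132 annotated stops among those in which the start codon remained. With no other difference, the exons that follow are those of the reference, so this outcome was fixed in advance. Whether any of these isoforms is translated or degraded was not tested.

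In the long reads, the intron chain of an isoform was present in a single stage annotation for 79.6% of the isoforms, in at least 2 for 16.9% (interval 15.7 to 18.1%) and in none for the rest, whose chain arose when the stages were merged. For exact matches, 57.1% were present in 2 or more. The isoforms made up between 5.87% (1-cell) and 9.33% (2-cell) of the transcripts of a stage, and 9.24% at the 4-cell stage. Sperm stood apart in that 89.8% of its 688 isoforms were found in sperm alone, whereas 57.8 to 66.5% of the isoforms of the other stages were found in that stage only. There were 4 isoforms present in all 7 stages, that of Oaz1 among them.

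The short reads were deposited as TPM, which sums to 1000000 in a library and keeps no read depth, so that no counting error can be given. Reads shared by isoforms of a gene are divided among them by Salmon's model, and an isoform that differs by a few bases rests on few reads of its own. Sperm libraries held 17536 to 21334 TPM of 8 sperm markers such as Prm1 and Prm2, and also 6086 to 8207 TPM of blood and immune markers and 580 to 2280 TPM of epididymis and fibroblast markers, against at most 380 and 6.38 TPM in the other libraries. Oocyte markers such as Zp3 summed to 5318 and 16252 TPM in the oocytes, and blastocyst markers such as Cdx2 to 22652 and 41967 TPM in the blastocysts. Both 2-cell libraries differed from each other: the 7 markers of the 2-cell embryo, such as Zscan4c, summed to 29.4 TPM in replicate 1, which lies within the range of the other embryo stages, and to 464 TPM in replicate 2, and blood and immune markers to 22.7 and 380 TPM. None of 7 cumulus and granulosa markers had a merged transcript, so such cells could not be checked. The part of these differences in the results was not tested.

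The isoforms took between 6.34 and 12.1% of the TPM of a library. The stage means were 7.55 ± 1.70% in sperm, 10.4 ± 2.45% in oocytes, 7.98 ± 0.585% at the 1-cell, 6.91 ± 0.0828% at the 2-cell, 8.45 ± 0.609% at the 4-cell and 8.82 ± 1.00% at the 8-cell stage, and 9.03 ± 0.23% in blastocysts (SD, n = 2 each). Over the 12 libraries from oocyte to blastocyst the stages could not be told apart by this share (exact permutation test of F over 10395 divisions, p = 0.162), although without oocyte replicate 2 the p was 0.00856 and without the 10 most abundant isoforms 0.0395. Of the 3600 isoforms, 3339 (92.8%) reached a mean of at least 1 TPM in some stage, 2232 (62.0%) at least 10 and 408 (11.3%) at least 100, and 23 were listed at 0 in all 14 libraries. The highest mean fell most often at the 4-cell stage (800 isoforms, 22.4%), in sperm (671) and at the 2-cell stage (614).

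The share of an isoform in the TPM of its gene was taken in genes of at least 5 TPM. The median share was low and peaked at the 2-cell stage. It was 3.10 and 3.26% in the oocyte libraries, 3.79 and 3.57% at the 1-cell, 6.71 and 10.0% at the 2-cell, 6.29 and 6.27% at the 4-cell and 4.89 and 4.54% at the 8-cell stage, 3.89 and 2.97% in blastocysts, and 5.74 and 5.44% in sperm. Both 2-cell and both 4-cell libraries lay above all 8 others from oocyte to blastocyst, and the stages differed (exact permutation test of F over 10395 divisions, p = 0.000866, adjusted over 3 such tests 0.0013). With 875 genes that had at least 5 TPM in all 12 libraries, holding 1453 isoforms, the order of the stages was kept in its main feature, from 2.03 and 2.29% in oocytes to 5.53 and 7.61% at the 2-cell stage (exact permutation p = 0.00077), and without 2-cell replicate 1 or 2 the exact permutation p was 0.000866 and 0.00202. This stage test and the next were added after the values had been seen. A higher median share at these stages was not particular to isoforms from annotated starts. New-start isoforms had stage means of 14.5 ± 10.4% at the 2-cell and 14.4 ± 1.18% at the 4-cell stage (SD, n = 2). Their means were 8.54 ± 3.04% in oocytes, 8.49 ± 0.352% at the 1-cell and 7.82 ± 1.43% at the 8-cell stage, and 3.87 ± 3.74% in blastocysts. Their 2-cell libraries differed, at 7.19 and 21.8%.

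A new isoform from an annotated start was the most abundant transcript of its gene in 21.2 to 31.2% of the genes measured. In 429 genes all merged transcripts are isoforms of this kind, so that in these genes an isoform leads by construction. The stage means were 26.5 ± 0.521% in oocytes, 25.5 ± 0.127% at the 1-cell, 29.1 ± 3.00% at the 2-cell, 24.7 ± 0.194% at the 4-cell and 23.6 ± 0.425% at the 8-cell stage, 21.8 ± 0.881% in blastocysts and 29.8 ± 1.79% in sperm. These stages differed as well (exact permutation p = 9.62e-05, the smallest that 10395 divisions can give, adjusted 0.000289), and with the same 875 genes throughout the p was 0.0159. New-start isoforms had higher median shares than the isoforms from annotated starts in 6 of 7 stages, with a mean difference of -3.87 points (isoforms from annotated starts minus new-start isoforms, SD over stages 3.20, exact sign-flip test over 7 stages, two-sided p = 0.0469, adjusted 0.0469). Exact matches had higher median shares in all 7 stages, with a mean difference of -51.4 points (SD 4.91, p = 0.0156, the smallest that 7 stages allow, adjusted 0.0312). The 7 stages measure the same sets of transcripts, so they are not independent units in these sign-flip tests. Replicates could also differ in order. In blastocysts isoforms from annotated starts had 3.89 against 6.51% for new-start isoforms in replicate 1, but 2.97 against 1.22% in replicate 2.

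**Figure D4:**
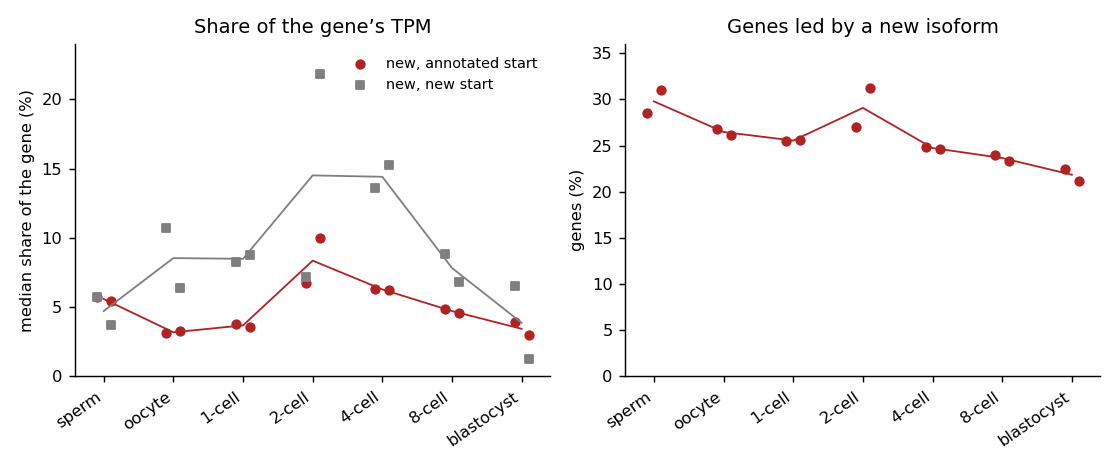
Left, median share of the gene's TPM in percent (y axis) for new isoforms from annotated starts (red circles) and from new starts (grey squares) in each library by stage (x axis); right, percent of genes whose most abundant transcript was a new isoform from an annotated start; points are libraries and lines stage means. The median share from annotated starts was highest at the 2-cell stage, at 6.71 and 10.0%, and the 2-cell libraries also stood highest among the embryos on the right.

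Of the 875 genes, 88 were led by such an isoform in all 12 libraries, and in 58 of these all merged transcripts of the gene were isoforms of this kind, so that no annotated transcript competed for the reads. In 532 genes such an isoform led in none of the 12. Between the 1-cell and the 2-cell stage an isoform moved to the lead in both libraries in 24 of 1259 genes, among them Taf9, Nasp, Top2a and Kif11, and lost it in 25, among them Riok1, Eif3c and Bptf. Between oocyte and blastocyst 15 of 966 genes gained such a leader and 38 lost it.

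Oaz1, an antizyme that targets ornithine decarboxylase for breakdown and is known for a programmed frameshift in its mRNA, gave TCONS_00001763 with 15441 and 6041 TPM in oocytes, 3137 and 4969 TPM at the 1-cell and 763 to 4177 TPM at later stages, and with 1158 and 2882 TPM in sperm. It held 95.3 to 99.0% of the gene in all libraries. It differed from Oaz1-201 only in that it included a gap of 4 bases that GENCODE draws at chr10:80828292-80828295, and the frame read here, which takes no account of frameshifting, stopped after 68 codons. There were 11 isoforms in 8 genes that differed through such annotated gaps under 30 bases, among them Oaz3 with a gap of 1 base.

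Dppa3 had 2 merged transcripts, and both were new isoforms. TCONS_00017048, with the intron of 20 bases in the first exon, held 63.7 and 68.3% of the gene in oocytes and 59.3 to 69.1% in all 12 libraries from oocyte to blastocyst. The isoform without the exon of 36 bases, TCONS_00017047, held the rest, from 30.9 to 40.7%. Its TPM was 3994 and 1399 in oocytes, 1528 and 895 at the 1-cell, 367 and 1294 at the 2-cell, 2810 and 3981 at the 4-cell and 2705 and 2476 at the 8-cell stage, and 4188 and 399 in blastocysts. The share thus stayed within 10 points while the level ranged from 367 to 4188 TPM, and it was not called between the 1-cell and 2-cell stage (log2 ratio 0.02 ± 0.38 SE, limma, Benjamini-Hochberg adjusted p = 0.981).

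Ubb, a source of ubiquitin that is induced by stress, gave TCONS_00002784 with 591 to 5802 TPM and 31.1 to 41.5% of the gene. Its new intron removed 228 bases and left the frame open to the annotated stop after 229 codons. Eif5a, a translation factor, gave TCONS_00003653 with 532 to 6269 TPM in oocytes and embryos and 50.7 to 64.9% of the gene. Omt2a, an oocyte gene, gave TCONS_00021507 with 14443 and 404 TPM in oocytes and 6203 and 686 TPM at the 1-cell stage, so that replicates of a stage differed more than the stages did. Cst3, which encodes the protease inhibitor cystatin C, and Itm2b, a membrane protein gene, led in sperm, with 884 and 14006 TPM for TCONS_00012337 and 1242 and 9443 TPM for TCONS_00006713. TCONS_00012337 is the only merged transcript of Cst3 and holds 100% of the gene in all libraries. Its TPM is thus that of the whole gene and does not bear on the new structure. The Itm2b isoform carried an added exon of 3 bases at chr14:73363581-73363583 and held 89.1 and 89.7% of the gene in sperm against 6.61 to 52.9% elsewhere. Epididymis and blood markers were present in these sperm libraries, and their part in these levels was not tested.

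Levels were compared between neighbouring stages by limma on log2(TPM + 1) with all 12 libraries in the fit and Benjamini-Hochberg adjustment over 20250 transcripts, 3054 of them new isoforms from annotated starts, with calls at an adjusted p under 0.05. Fold changes on this scale understate the change of low transcripts. From 1-cell to 2-cell 752 isoforms were higher and 199 lower (24.6 and 6.52% of those tested), where 22.9 and 5.11% of all transcripts were called higher and lower. These shares are close to the background. The median log2 change was 0.75 over all 20250 transcripts and 0.70 over the isoforms. Under quantile normalization, which removes such a shift, 355 isoforms were higher and 544 lower (11.6 and 17.8%), against 12.9 and 15.0% of all transcripts. The balance of directions thus depends on the scaling. A fit on the 4 libraries of the transition alone, which has its own estimate of the spread, called 0 of them by limma, with 892 at an unadjusted p under 0.05. With the spread weighted by stage 300 isoforms were called higher and 49 lower, and 466 and 424 remained called without 1-cell replicate 1 and replicate 2.

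In the fit on 12 libraries fewer isoforms were called at each of the other transitions, but this order turned in other fits. With the spread weighted by stage 973 were called from 4-cell to 8-cell against 349 from 1-cell to 2-cell. The fits on 4 libraries gave 518 against 0. In the weighted fit, 7.43 and 24.4% of isoforms were higher and lower from 4-cell to 8-cell, against 7.48 and 23.5% of all transcripts. From 1-cell to 2-cell the weighted fit gave 9.82 and 1.60%, against 10.1 and 1.14%. The fit on 4 libraries from 4-cell to 8-cell gave 4.22 and 12.7%, against 3.93 and 14.4%. These shares are close to those over all transcripts. From oocyte to 1-cell 14 isoforms were higher and 6 lower (all transcripts 1.92 and 0.084%, and 8 and 22 isoforms under quantile normalization), from 2-cell to 4-cell 73 and 20 (1.46 and 1.17%), from 4-cell to 8-cell 21 and 52 (0.681 and 2.44%, and 62 and 41 under quantile normalization), and from 8-cell to blastocyst 19 and 55 (0.83 and 1.28%). At these transitions the count depended on single libraries. It was 0 without either 1-cell library at the first, 0 without either 4-cell library at the second, 0 without any of the 4-cell and 8-cell libraries at the third, and 1 and 5 without 8-cell replicate 1 and replicate 2 at the last. Without 2-cell replicate 1 or 2 the counts rose at the 2-cell to 4-cell transition and at the next. The direction from 2-cell to 4-cell also turned with the 2-cell library left out. There the median log2 change of the isoforms was -0.10 without replicate 1 and 0.46 without replicate 2, against 0.09 with both. Over all transcripts the medians were -0.34, 0.54 and 0.01 in that order.

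By kind, isoforms with a new intron between annotated sites had 188 of 526 higher in level at the 2-cell stage and 28 lower (all transcripts 22.9 and 5.11%). Retained introns had 21 of 64 higher and 3 lower, skipped exons 252 of 801 and 52, other last exons 77 of 263 and 23, and other first exons 113 of 571 and 40. Differences between these kinds were not tested, and the balance of directions over all isoforms turned under quantile normalization, as given above.

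Of 51 tested isoforms of cytosolic ribosomal protein genes, 27 were higher at the 2-cell stage and 0 lower, with a median log2 change of 2.19 against 0.75 over all transcripts, where 22.9% of all transcripts were called higher and 5.11% lower. Under quantile normalization 14 were higher and 0 lower, and with the spread weighted by stage 13 and 0. Rps26, a protein of the small ribosomal subunit, gave TCONS_00002477 with 0 and 0.00108 TPM at the 1-cell and 74.0 and 95.1 TPM at the 2-cell stage. Its log2 change was 6.41 ± 0.67 (SE, limma adjusted p = 0.000465). Its new intron was read as GG and AG, and its chain was found only in the 8-cell long reads. The Rps26 isoform stayed at 172 and 186 TPM at the 4-cell and 346 and 368 TPM at the 8-cell stage and was lower in blastocysts, at 28.6 and 48.8 TPM (log2 change -3.22 ± 0.67, limma adjusted p = 0.0282). Rpl31, of the large subunit, gave TCONS_00000143 with 4.33 and 16.1 TPM at the 1-cell and 32.9 and 93.6 TPM at the 2-cell stage (log2 change 2.57 ± 0.84, limma adjusted p = 0.0392). The call for Rpl31 was lost in 9 of 19 alternatives, with an adjusted p of up to 0.256 without 1-cell replicate 2, and its new intron was read as GA and AG. Many ribosomal protein genes have processed copies in the genome, so the division of their reads is uncertain.

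Isoforms of maternal effect and oocyte factors had 0 of 35 higher and 13 lower at the 2-cell stage, against 22.9 and 5.11% of all transcripts, with a median log2 change of -1.27. Under quantile normalization 0 were higher and 21 lower, and with the spread weighted by stage 0 and 5. Dppa3, in this list, was not called. Of 17 isoforms of cyclins and cell cycle kinases 9 were higher and 2 lower (median 2.01, 5 and 4 under quantile normalization, and 2 and 1 with the spread weighted by stage). Ccne1 gave the isoform without 69 bases, TCONS_00018818, with 3.38 and 0 TPM at the 1-cell and 328 and 84.4 TPM at the 2-cell stage, a log2 change of 6.32 ± 0.95 (limma adjusted p = 0.00101, 0.000823 to 0.113 over the alternatives). It then stood at 32.2 and 47.1 TPM at the 4-cell stage and at 5.09 TPM or less from the 8-cell stage on. Its share of Ccne1 was 27.6 and 0% at the 1-cell and 8.83 and 27.0% at the 2-cell stage, so the libraries of both stages overlapped in share.

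SR proteins, which bind exons and recruit the spliceosome, had 24 isoforms in 7 of 13 genes, with 4 of 19 higher and 0 lower at the 2-cell stage (all transcripts 22.9 and 5.11%), 1 and 1 under quantile normalization and 0 and 0 with the spread weighted by stage. Srsf7 had the most isoforms of any gene, 12 of its 17 merged transcripts. Its isoforms were low: TCONS_00009464 reached the highest mean, 50.6 ± 9.43 TPM at the 4-cell stage, after 5.80 ± 6.59 TPM at the 2-cell and 0.943 ± 0.118 TPM at the 1-cell stage (SD, n = 2), and the others stayed at stage means of 17.0 TPM or less. Srsf1 gave TCONS_00003003, with a new intron of 77 bases beyond the stop codon, at 4.87 and 31.3 TPM at the 1-cell and 710 and 65.6 TPM at the 2-cell stage (log2 change 3.98 ± 1.09, limma adjusted p = 0.0181). It held 85.9 to 99.2% of the gene in all libraries of 1-cell embryos and later, and the annotated stop lay 1228 bases before the last junction.

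The hnRNP proteins, which bind nascent RNA, had 33 isoforms in 11 of 27 genes, with 5 of 28 higher and 0 lower at the 2-cell stage (all transcripts 22.9 and 5.11%), 2 and 1 under quantile normalization and 2 and 0 with the spread weighted by stage. Isoforms of ubiquitin ligases and proteases had 9 of 37 higher and 2 lower (8 and 4 under quantile normalization, 7 and 0 with the weighted spread), those of RNA polymerase II and mediator 3 of 24 and 1 (1 and 3, 1 and 0), those of chromatin regulators 2 of 20 and 1 (1 and 5, 1 and 1), and those of sperm and spermatid genes 3 of 15 and 2 (2 and 2, 2 and 0). The median log2 change was 0.15 for hnRNP proteins, 0.93 for ubiquitin ligases and proteases, 0.50 for RNA polymerase II and mediator and 0.52 for sperm and spermatid genes, and under quantile normalization these medians were -0.24, -0.11, -0.24 and -0.17. For chromatin regulators the median was -0.67, and -1.31 under quantile normalization. Among the ligases, Trim43a, a gene of the 2-cell to 8-cell embryo, gave TCONS_00020909 with 0.469 and 0.0661 TPM at the 1-cell, 21.7 and 68.6 TPM at the 2-cell and 370 and 341 TPM at the 4-cell stage. That rise to the 2-cell stage had a log2 change of 4.99 ± 0.83 (limma adjusted p = 0.00142). No stage annotation held the whole chain of the Trim43a isoform. Mdm4, an inhibitor of p53, gave TCONS_00001178, which left out 2 exons and stood at 118 to 966 TPM from the oocyte to the 4-cell stage and was not called at the 2-cell stage. Of 35 pluripotency and lineage factors 2 had such isoforms, Nanog and Dppa4, with 3 in all, of which limma called 0 at the 2-cell stage and 0 had an unadjusted p under 0.05. Nanog gave TCONS_00017050 with 0 and 0.352 TPM at the 2-cell, 9.22 and 5.37 TPM at the 4-cell and 21.8 and 30.7 TPM at the 8-cell stage, a rise at the 4-cell stage (log2 change 2.79 ± 0.64, limma adjusted p = 0.0423) that was not called without 4-cell replicate 1 (adjusted p = 0.332).

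Changes of the share were tested by limma on the log2 ratio of the isoform to the rest of its gene, in genes of at least 5 TPM in all 4 libraries, with a call at a Benjamini-Hochberg adjusted p under 0.05 and a shift of more than 10 points. From 1-cell to 2-cell 134 of 1798 isoforms held a higher share and 49 a lower share (7.45 and 2.73%), where 6.32 and 5.59% of the 6851 transcripts tested were called higher and lower. In 90 isoforms both the level and the share rose, and in 20 both fell, and no share over all transcripts is given beside these counts. The fit on 4 libraries called 0 by limma, and 71 and 121 remained called without 1-cell replicate 1 and replicate 2. By kind, skipped exons had 51 of 504 higher and 10 lower, other last exons 21 of 142 higher and 5 lower, and other acceptors 16 of 486 higher and 16 lower. Isoforms with a new intron between annotated sites had 44 of 329 higher and 6 lower. A skipped exon pairs with an isoform that keeps it in the same gene, so the shares of a gene are not independent.

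In the fit on 12 libraries fewer shares were called at each of the other transitions, while with the spread weighted by stage 99 were called from 4-cell to 8-cell, against 88 between 1-cell and 2-cell embryos. From 4-cell to 8-cell 2 of 2305 were higher and 0 lower (0.0692 and 0.0461% of all transcripts). Limma called 0 from 8-cell to blastocyst (0.0127% of all transcripts lower), 0 from oocyte to 1-cell and 0 from 2-cell to 4-cell, where 198, 102 and 448 isoforms had an unadjusted p under 0.05. Without 2-cell replicate 1 or 2, 49 and 26 were called at the 2-cell to 4-cell transition.

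Several isoforms gave way at the 2-cell stage. Riok1 with the exon of 57 bases held 93.6 and 93.8% of its gene in oocytes and 93.8 and 91.8% at the 1-cell stage, then 9.34 and 29.99% at the 2-cell, 6.04 and 8.90% at the 4-cell and 3.64 and 5.50% at the 8-cell stage, and 6.70 and 3.37% in blastocysts. The oocyte and 1-cell libraries lay far above all later ones. Its log2 ratio fell by 5.45 with an SE of 0.57 (limma adjusted p = 0.00086, at most 0.0735 over the alternatives), and its TPM fell from 569 and 287 to 1.01 and 10.5. This isoform has only annotated introns, and its chain was present in the oocyte and 1-cell long reads and in no other stage.

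Pabpn1, a protein that binds poly(A) tails in the nucleus, gave isoforms that moved in opposite directions. TCONS_00006205, with a new intron of 198 bases that was read as GG and GG, held 98.8 and 99.9% of the gene in oocytes and 95.2 and 99.5% at the 1-cell stage, against 25.7 and 0.937% at the 2-cell and 13.2 and 9.90% at the 4-cell stage. The other, TCONS_00006203, began at an annotated start further upstream, at chr14:54892496. It held 0.967 and 0% in oocytes and 3.96 and 0% at the 1-cell stage, against 65.7 and 97.2% at the 2-cell and 78.0 and 80.7% at the 4-cell stage. The log2 ratios changed by -7.62 ± 1.58 and 6.76 ± 1.36 (limma adjusted p = 0.0117 and 0.0103, at most 0.099 over the alternatives). The level of TCONS_00006205 stayed at 4.45 to 40.0 TPM from oocyte to blastocyst and was not called at this transition, while TCONS_00006203 went from 0.424 and 0 to 60.6 and 462 TPM. The start codon of Pabpn1-201 lay outside the exons of the upstream isoform.

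Taf9 with the new first exon, TCONS_00005461, was an isoform of the 2-cell and 4-cell stage. It held 6.68 and 9.83% of the gene at the 1-cell, 74.9 and 72.0% at the 2-cell, 45.3 and 44.8% at the 4-cell and 8.59 and 7.55% at the 8-cell stage, and 3.12 and 7.80% in blastocysts. Its log2 ratio rose by 4.70 ± 0.56 at the 2-cell stage (limma adjusted p = 0.00147, at most 0.0735 over the alternatives). The level rose with it, from 4.31 and 6.38 to 56.6 and 68.6 TPM, and fell from 36.7 and 37.5 TPM at the 4-cell to 1.94 and 2.01 TPM at the 8-cell stage (log2 change -3.68 ± 0.60, limma adjusted p = 0.00637). The frame reached the annotated stop after 264 codons, and the chain was present in the 2-cell and 4-cell long reads. The annotated transcript nearest to it was Ak6-202, of a gene that overlaps Taf9, so reads of both genes can be mixed.

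Creld2 without the exon of 96 bases followed the same course at lower shares. Of the gene it held 0 and 0.0304% in 1-cell embryos, 20.3 and 22.4% in 2-cell embryos, 12.4 and 11.9% at the 4-cell and 1.69 and 1.17% at the 8-cell stage, and 0 and 0.106% in blastocysts. Its log2 ratio rose by 7.53 ± 0.53 (limma adjusted p = 0.000282, at most 0.0575 over the alternatives), and its TPM went from 0 and 0.189 to 145 and 120. The gene as a whole was at 876 and 620 TPM at the 1-cell and 714 and 538 TPM at the 2-cell stage. This chain too was present in the 2-cell and 4-cell long reads only.

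Eif3c, a subunit of the translation initiation factor that binds the small ribosomal subunit, had an isoform that was absent from the values of the 2-cell stage and present before and after it. TCONS_00019223 held 89.0 and 83.3% of the gene in 1-cell embryos, 0 and 0% in both 2-cell libraries, 0.324 and 0% at the 4-cell and 67.6 and 47.9% at the 8-cell stage, and 28.0 and 44.8% in blastocysts. The isoform is listed at 0 TPM in both 2-cell libraries, so no fold is given there, and limma called the lower share at an adjusted p of 0.000282. From 4-cell to 8-cell the log2 ratio changed by 8.10 ± 0.69 (limma adjusted p = 0.00207, at most 0.0634 over the alternatives). It differed from Eif3c-201 by a donor 2 bases and an acceptor 7 bases from annotated sites, and the readable end of the new intron was TC. Its chain was found only in the sperm long reads. Zc3h15, a zinc finger gene, gave TCONS_00011149 with a like course, at 71.5 and 35.8% at the 1-cell, 3.62 and 0.131% at the 2-cell, 0.389 and 0% at the 4-cell and 45.8 and 59.5% at the 8-cell stage, again with sites 1 and 2 bases from annotated ones and an intron that began with GG. The chain of the Zc3h15 isoform was found only in the 2-cell long reads, the stage where its share in the short reads was near 0. Its log2 ratio fell by 6.11 at the 2-cell stage (SE 1.24, limma adjusted p = 0.0108).

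Med27, a subunit of the mediator complex that links transcription factors to RNA polymerase II, gave TCONS_00010922 with another first exon, at 75.4 and 69.5% of the gene at the 1-cell, 18.8 and 53.1% at the 2-cell and 1.22 and 0.955% at the 4-cell stage. The difference between the 1-cell and 2-cell stage was not called (log2 ratio -2.33 ± 0.72, limma adjusted p = 0.0562, 0.00953 to 0.271 over the alternatives). From 4-cell to 8-cell the uncharacterised gene 2610318N02Rik gave the other share that was called, with TCONS_00008096 at 5.70 and 4.91% at the 4-cell and 55.7 and 52.5% at the 8-cell stage (log2 ratio 3.62 ± 0.41, limma adjusted p = 0.0115, but 0.199 with a pseudocount of 0.1). Its level was low, at 1.04 and 1.66 TPM before and 17.4 and 20.3 TPM after, and the highest level was in sperm, at 70.9 and 10.4 TPM.

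**Figure D5:**
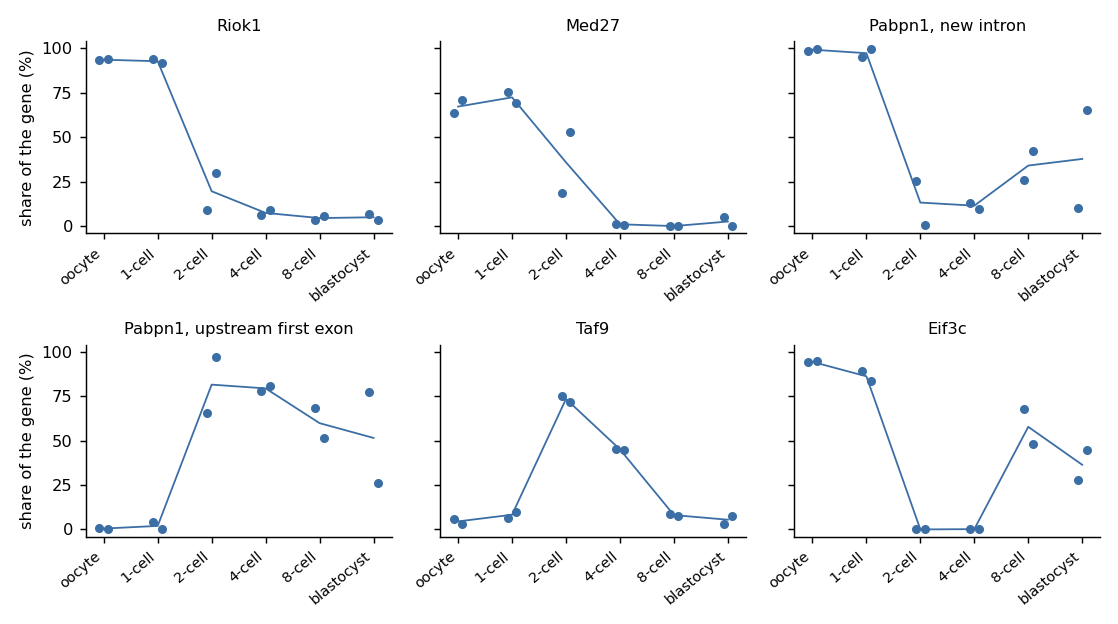
Share of the gene's TPM in percent (y axis) by stage (x axis) for 6 new isoforms from annotated starts; points are libraries and lines stage means. Riok1 dropped from 91.8% or more to 29.99% or less at the 2-cell stage, Taf9 peaked there at 72.0 and 74.9%, the Pabpn1 isoforms exchanged places, and Eif3c was near 0% at the 2-cell and 4-cell stage.

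In level, the largest rises among the isoforms at the 2-cell stage were those of Pabpn1 (TCONS_00006203, log2 change 7.14 ± 1.06), Creld2 (6.93 ± 0.60), Ctsz (6.89 ± 0.65), Prkcz and Rps26. Ctsz, a lysosomal protease, gave TCONS_00012507 with 1.04 and 0.741 TPM at the 1-cell and 235 and 210 TPM at the 2-cell stage, at 87.6 to 100% of the gene throughout. Prkcz gave TCONS_00015080, which is listed at 0 TPM in both 1-cell and both oocyte libraries, so that no fold is given, and at 361 and 32.2 TPM at the 2-cell stage. The largest falls were those of D6Ertd527e (log2 change -6.71 ± 0.97), Riok1 (-6.40 ± 0.90), Zc3h15 (-6.18 ± 1.15), Dnajc3 (-6.06 ± 1.65) and Rgs17 (-5.90 ± 0.71). Rgs17, a regulator of G protein signalling, gave TCONS_00001987 with 351 and 113 TPM at the 1-cell and 3.89 and 1.30 TPM at the 2-cell stage. D6Ertd527e gave TCONS_00016886 with 3268 and 1071 TPM at the 1-cell and 5.38 and 48.9 TPM at the 2-cell stage, at shares of 26.5 to 36.7% of the gene in these 4 libraries. All 10 were past the threshold by limma, with adjusted p from 0.000356 to 0.0174, and all 10 exceeded 0.05 in the fit on 4 libraries. The Dnajc3 isoform was not called in 6 of 19 alternatives, with an adjusted p of up to 0.214 with the spread weighted by stage.

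Some isoforms or genes that the paper itself names were of this kind. Those of Csnk1a1, Cd63 and Fabp3 were among isoforms that it chose at random for PCR. It reports that Sanger sequencing of the products verified the new junctions. Xiap and Ggnbp2 are among the genes for which it reports new isoforms that rose from 1-cell to 2-cell. Csnk1a1, a casein kinase, gave TCONS_00009726 with 2.86 and 3.92 TPM at the 1-cell and 208 and 12.0 TPM at the 2-cell stage, and with shares of 1.34 and 0.868% before and 18.5 and 10.0% after (log2 ratio 3.55 ± 1.01, limma adjusted p = 0.042, but 0.172 without 1-cell replicate 2). Xiap, an inhibitor of apoptosis, gave TCONS_00021906 with 2.07 and 2.11 TPM at the 1-cell and 28.2 and 29.1 TPM at the 2-cell stage (log2 change 3.26 ± 0.64, limma adjusted p = 0.00338). Fabp3, a fatty acid carrier, gave TCONS_00014103 with 4.81 and 7.18 TPM at the 8-cell stage and 86.6 and 45.9 TPM in blastocysts (log2 change 3.22 ± 0.55, limma adjusted p = 0.0131), at no more than 5.50% of the gene. The isoform of Cd63, TCONS_00001969, held at most 0.273% of the gene and reached 6.00 TPM. Ggnbp2 gave 4 isoforms, of which TCONS_00003786 was highest in sperm, at 23.2 and 252 TPM and 55.5 and 55.3% of the gene. From 1-cell to 2-cell TCONS_00003786 went from 0.233 and 1.65 to 3.38 and 4.16 TPM. TCONS_00003788 went from 1.81 and 0.813 to 5.15 and 19.7 TPM, and TCONS_00003784 from 0 and 1.23 to 0.713 and 1.69 TPM. TCONS_00003787 was at 0 TPM in these libraries.

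Other kinds of difference are shown by the isoforms of Lrpap1, Etfb, Brdt, Ezh2 and Hnrnpdl. Lrpap1, a chaperone of lipoprotein receptors, gave TCONS_00016022 with another last exon, which stood at 7.67 and 2.10 TPM at the 1-cell, 793 and 1155 TPM at the 8-cell stage and 1866 and 1101 TPM in blastocysts, with a share of 61.7 to 79.0% of the gene from the 1-cell stage on. Etfb, an electron carrier of the mitochondrion, gave TCONS_00018045, which joined introns of Etfb to introns of Cldnd2 and Gm45233 and reached 195 and 470 TPM in blastocysts. No stage annotation held the whole of its chain. Among chromatin regulators, Brdt, a bromodomain protein of the germ line, gave TCONS_00015518 with an annotated donor in a new combination, at 746 and 238 TPM in oocytes, 183 and 461 TPM at the 1-cell, 86.2 and 61.6 TPM at the 2-cell and 4.76 and 9.51 TPM at the 4-cell stage. Its fall to the 4-cell stage was called (log2 change -3.25 ± 0.78, limma adjusted p = 0.0479), but not without 4-cell replicate 1 (adjusted p = 0.353). Ezh2, the histone methyltransferase of Polycomb repression, gave TCONS_00017306 with 54.6 to 69.7% of the gene in oocytes and 1-cell embryos and 24.8 to 31.8% in 8-cell embryos and blastocysts. No stage annotation held the whole chain of the Ezh2 isoform either. Hnrnpdl without an exon of 171 bases, TCONS_00016174, went from 2.93 and 4.23% of the gene at the 1-cell to 17.2 and 34.9% at the 2-cell stage (log2 ratio 2.94 ± 0.83, limma adjusted p = 0.0418, but 0.182 without 1-cell replicate 1).

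Short gaps, very short introns and unusual intron ends were counted together. There were 374 isoforms that differed through an annotated gap under 30 bases, held a new intron under 50 bases (20 isoforms) or held a new intron whose readable ends were not GT-AG, GC-AG or AT-AC (348 isoforms). Without them 3226 isoforms remained, and these took 4.56 to 8.55% of the TPM of a library in place of 6.34 to 12.1%. Isoforms of Oaz1, Hspa2, Srsf1, Rps26, Rpl31, D6Ertd527e, Pabpn1 with the new intron and Dppa3 with the intron of 20 bases were among the 374. Those of Riok1, Taf9, Creld2, Ccne1 and Dppa3 without its exon were not. Introns with an unread end were not judged this way. Judged by single readable ends, 495 isoforms held a new intron end that was none of GT, GC, AT or AG, AC, and those of Eif3c and Zc3h15 are such cases outside the 374.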

How the data were processed

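The authors made 1 long-read annotation for each of 7 stages (mm10, GSNAP, STAR, Salmon and Cufflinks are named in the submitters' processing notes, without versions), merged them into 22612 transcripts, and deposited exon coordinates and, for 14 short-read libraries, TPM over the merged transcripts. TPM carries no read depth, so depth per library and counting errors are not known. Samples were grouped by title. The 8-cell titles number the replicates opposite to other labels, and the titles were followed.

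Introns, starts and ends were compared with the 141767 GENCODE vM21 transcripts on reference chromosomes (Python 3.11.15, pandas 2.3.3, numpy 2.4.6), and intron ends and reading frames were read where vM21 transcript sequences cover the bases. No genome sequence was used here. Levels were fitted by limma 3.58.1 (R 4.3.3) on log2(TPM + 1) with a stage term over 12 libraries, for transcripts that reached 1 TPM in 2 or more libraries, and shares on log2 of the isoform plus 1 over the rest of the gene plus 1. P-values were adjusted by Benjamini-Hochberg over all transcripts tested. The replicates are libraries of separate pools, and p-values measure only their spread. Library values were compared by exact permutation (scipy 1.17.1), and shares of transcripts carry 95% Wilson intervals (scipy 1.17.1), which cover counting of transcripts only. The scripts were tested on simulated data. Figures were drawn with matplotlib 3.10.9.

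The isoforms, the gene lists and the tests were chosen with earlier results of these data known. Isoforms were named if the study names them, if they were among the 2 highest of a stage, the 2 largest called rises or falls of the share at a transition, the 5 largest called rises or falls of the level from 1-cell to 2-cell, the highest of a kind of difference, those of the gene with the most isoforms, or the 2 highest of a gene list. Named isoforms not described in the text were left out for length. Alternatives were another pseudocount, filter, scaling, start window, reference transcript, gene definition and spread, a replicate block, and each library left out. The authors' own comparisons were not used.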

Additional observations from a re-analysis of the deposited data

How the results depend on the processing

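With 2 libraries per stage and no depth, calls at single transitions rested on the spread shared by all 12 libraries. The number of isoforms depended little on the start window. Choosing the reference by exonic bases gave an added internal exon in 13.0%, a new intron inside an exon in 10.4% and another last exon in 6.75% of isoforms. Isoforms with a new splice site made up 52.7% with at least 1 TPM in 2 libraries and 53.4% with starts within 50 bases. The TPM taken by the isoforms averaged 6.51% without the 10 most abundant (exact permutation p = 0.0395) and 8.28 to 8.75% with 1 library left out (exact permutation p = 0.00856 without oocyte replicate 2). The median share averaged 4.43% in genes of at least 20 TPM, 3.797% in genes over 5 TPM in all 12 libraries, and 4.91 to 5.15% without all replicate 2 or all replicate 1 libraries. Genes led by a new isoform averaged 24.7 to 25.1% and the stage values of the median share 4.48 to 4.78% without a 2-cell library.

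The calls in level, in the order of the 5 transitions from oocyte to blastocyst, numbered 20, 951, 93, 73 and 74. The summed counts in this paragraph have no share over all transcripts beside them, so they show only how the number of calls moved. The fit on the 4 libraries of a transition gave 0, 0, 0, 518 and 0, a spread weighted by stage 32, 349, 0, 973 and 129, and leaving out 1 library 0 to 54, 424 to 1065, 0 to 444, 0 to 290 and 1 to 190. A pseudocount of 0.1 gave 21 at 2-cell to 4-cell and 42 at 8-cell to blastocyst, where quantile normalization gave 245 and 117. The calls in share numbered 0, 183, 0, 2 and 0. Leaving out 1 library gave 0 to 6, 71 to 233, 0 to 49, 0 to 4 and 0 to 1. The fit on 4 libraries gave 0 at 1-cell to 2-cell and 32 at 4-cell to 8-cell, the weighted spread 88 at 1-cell to 2-cell, 99 at 4-cell to 8-cell and 1 at 8-cell to blastocyst, and no minimum difference 283 at 1-cell to 2-cell. A gene minimum of 1 TPM gave 2 at oocyte to 1-cell, 2 at 2-cell to 4-cell and 1 at 8-cell to blastocyst, a minimum of 20 TPM 7 at 2-cell to 4-cell and 1 at 4-cell to 8-cell, genes taken as loci 6 and 3 at 2-cell to 4-cell and 8-cell to blastocyst, and the pseudocount of 0.1 1 and 2 at the last 2 transitions. The cause of these shifts was not tested. Under quantile normalization the balance of higher and lower isoforms turned at 3 transitions, to 8 and 22 from oocyte to 1-cell (14 and 6 before), 355 and 544 from 1-cell to 2-cell (752 and 199) and 62 and 41 from 4-cell to 8-cell (21 and 52). Of 98 named results between the 1-cell and 2-cell stage, 32 lost a call in some alternative, 18 of them only in the fit on 4 libraries. That fit called 0 of all transcripts at this transition, in level and in share. Every named call was thus lost in it, and the rest of the 98 had no call to lose.

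The replicate numbers are shared across stages, and the deviations of same-numbered libraries correlated between -0.49 and 0.41 over 15 pairs of stages, 3 of them above 0.1, so the numbers do not pair the libraries. With the replicate block the calls in level numbered 9, 827, 29, 44 and 40 and those in share 0, 155, 0, 2 and 0. From 1-cell to 2-cell this block gave 21.7 and 5.34% of isoforms higher and lower in level, against 20.1 and 4.09% of all transcripts. In share it gave 6.40 and 2.22%, against 5.33 and 4.61%. From oocyte to 1-cell the level gave 0.229 and 0.0655%, against 1.61 and 0.0395%.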
